A study of Mus musculus with 16 samples.

Results

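Mouse tumour lines were compared with 1 reference DNA on 16 arrays. Of 219961 autosomal probes with a value on every array, 277 read far from the array median in the same direction on all 16. Of these, 60 read lower and 217 read higher than the reference DNA. They were selected on the log2 ratio of line over reference, centred on the autosomal median of each array. A low probe was at or below -0.8, and a high probe at or above 0.8, on all 16 arrays, and spots flagged as outliers counted as missing. A further 707 autosomal probes lacked a value on at least 1 array and could not qualify.

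Genomic DNA from 16 in vitro cultures of syngeneic tumour lines was hybridised to 2-colour arrays, with 1 array per culture. Syngeneic lines are lines that grow in immunocompetent mice of their own strain. The line carried the red dye Cy5. The green dye Cy3 marked a mouse genomic DNA from Merck that was the same on every array. Per the labels, CT26 (colon), 4T1 (breast) and Renca (kidney) are Balb/C, and P815 (mastocytoma) is the only DBA/2 line. The other 12 arrays are labelled C57BI6 and carried MC38, LL2, Hepa1-6, PAN02, EL4 and ID8, 4 arrays of B16 (F0 and F10, from different collections) and 2 of TRAMPC. Counting the B16 and TRAMPC sublines as 1 family each gives 12 families, of which 8 are C57BI6. Nothing was treated, and the strain of the reference DNA is not given in the sources used here. B16F0 (ECAC and ATCC) and B16F10 (NCI and ATCC) were each arrayed from 2 stocks. Every other line had 1 culture and so no replicate.

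Comparative genomic hybridisation measures the copies of a sequence in a test genome relative to a reference genome. Inbred mouse strains differ from each other in segments that are deleted or duplicated, often in families of repeated genes, and in single bases under a probe, which weaken its hybridisation. A sequence at which the reference DNA differs from all the test genomes shifts the ratio away from 0 on every array. The gains and losses of each tumour add to that shift or reduce it. A probe that responds unequally to the 2 dyes gives the same pattern. No array had the dyes swapped, so these 2 sources cannot be told apart here for any one probe.

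Hepa1-6 and PAN02, labelled as liver and pancreas, were alike over the autosomal probes (Pearson r = 0.90 across probes, which are not independent replicates; all pairs of arrays ranged from 0.25 to 0.92). Leaving out Hepa1-6 gave 60 low and 224 high probes, and leaving out PAN02 gave 60 and 219. Probe-to-probe noise was lowest in Renca (0.22) and highest in TRAMPC2 (0.40). The arrays were scanned in 2 batches of 6 and 10, with all 3 Balb/C lines in the first.

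The number of probes fell as more arrays were required. At or above 0.8 there were 600 probes on exactly 13 arrays, 330 on 14, 292 on 15 and 217 on 16. At or below -0.8 there were 172, 78, 62 and 60. The low counts thus levelled off between 15 and 16 arrays, and the high counts went on falling. The high counts had a local peak of 1040 probes at exactly 12 arrays, and for 467 of these (44.9%) the 12 arrays were the C57BI6 arrays. Of the 172 probes low on exactly 13 arrays, 50 (29.1%) were low on all C57BI6 arrays and P815 and on no Balb/C array.

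**Figure D1:**
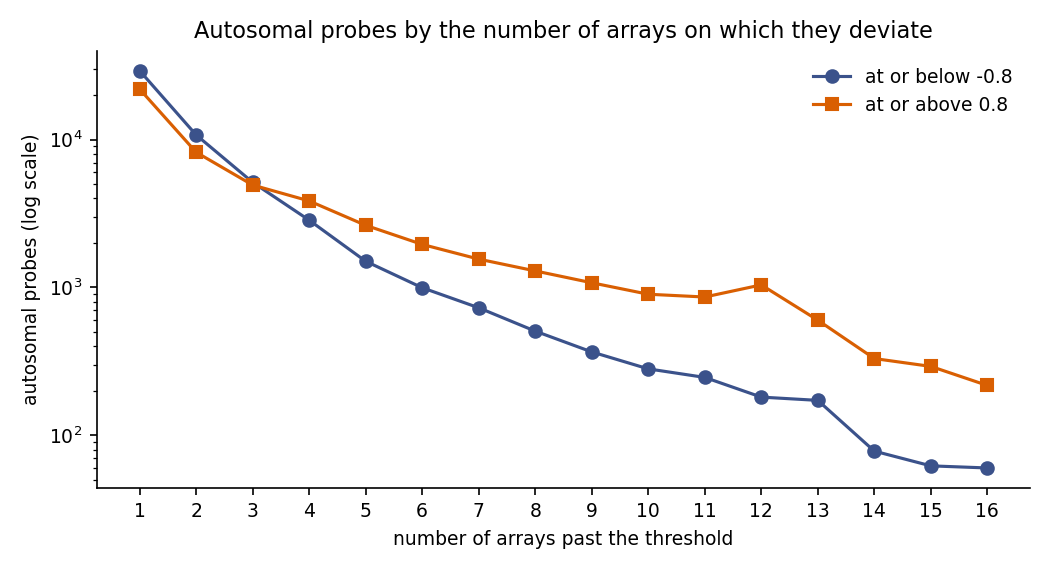
Number of autosomal probes (log scale) at or below -0.8 (circles) or at or above 0.8 (squares) against the exact number of arrays on which they passed. The counts end at 60 low and 217 high probes on 16 arrays, and the high curve has a local peak of 1040 at 12 arrays.

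The selection sits on a slope and not at a natural gap. The 3 low probes nearest the threshold had weakest values of -0.806 (LL2), -0.807 (P815) and -0.811 (CT26), and the 3 that just missed it had -0.7997, -0.796 and -0.795, all in EL4. For the high direction the 3 nearest inside had 0.8006 (CT26), 0.8006 (B16F10 NCI) and 0.801 (Hepa1-6), and the 3 nearest outside had 0.799 (Hepa1-6), 0.798 (B16F10 NCI) and 0.796 (P815). Renca held the weakest value of 47 of the 217 high probes and B16F0 ECAC of 24. CT26 held the weakest value of 12 of the 60 low probes and B16F0 ECAC of 11.

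The typical size of the deviation was close to 3-fold in both directions. The median over arrays of a low probe ran from -3.38 to -1.05, with a median over the 60 probes of -1.56 (2.94-fold lower in the line). That of a high probe ran from 1.00 to 5.15, with a median over the 217 probes of 1.62 (3.06-fold higher). Array by array, the median low probe lay between -1.77 in TRAMPC2 and -1.45 in CT26, and the median high probe between 1.40 in Renca and 1.83 in B16F0 ATCC.

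The deviation lay mostly in the reference channel. To see this, each signal was set against the autosomal median of its own channel on the same array, on the log2 scale. Such a level depends on the sequence of the probe as well as on copies and is no copy number. At the low probes the median reference level was 1.29 above the array median and the median line level was 0.24 below it. At the high probes the median reference level was 1.56 below and the line level 0.12 above. The reference was farther from its array median than the line at 49 of 60 low probes (81.7%) and at 184 of 217 high probes (84.8%), against 53.2% of all autosomal probes. A reference level of 0.8 or more was found at 45 of the 60 low probes (75%), against 7.52% of all. A reference level of -0.8 or less was found at 181 of the 217 high probes (83.4%), against 10.68% of all. These shares describe the probes and carry no test, because the ratio that selected them contains the reference signal.

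At the remaining 33 high and 11 low probes the line was the channel farther from its array median. The line level was at or above 0.8 at 27 of the 217 high probes and at or below -0.8 at 7 of the 60 low probes. At 26 high probes the line level itself was at or below -0.8, so that both channels were dim and the reference was the dimmer one. At 4 low probes the line level was at or above 0.8, and both channels were bright. The brightest reference among the 277 was at the chromosome 4 probe A_67_P05213913, at 5.59 above the array median, with the line at 2.78 above.

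**Figure D2:**
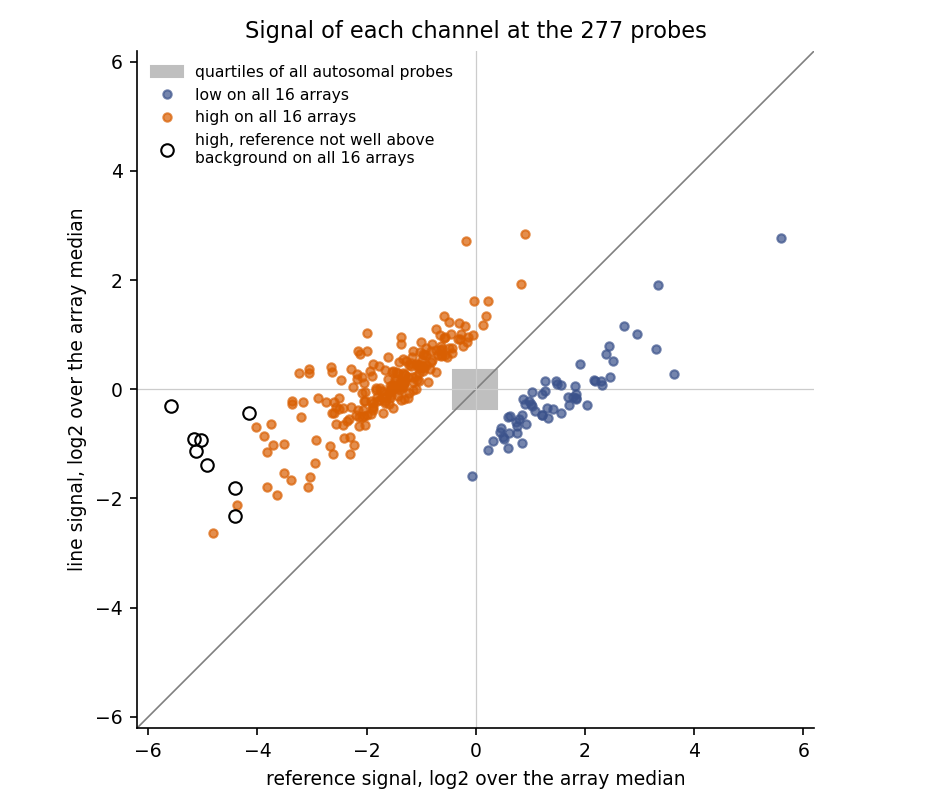
Median over 16 arrays of the reference signal (x) and the line signal (y) at each of the 277 probes, both as log2 over the array median; the diagonal marks equal levels, the grey box spans the quartiles of all autosomal probes, and open circles are the 8 high probes whose reference was not well above background on any array. The low probes spread to the right (median reference level 1.29) and the high probes to the left (-1.56), while most line levels stay near 0.

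The reference signals repeated closely from array to array. Over 16 hybridisations of 1 reference DNA, the SD of the reference level had a median of 0.15 at low probes, 0.21 at high probes and 0.13 over all autosomal probes. The line level, which also carries the differences between tumours, had a median SD of 0.27 at low probes, 0.29 at high probes and 0.30 over all.

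Background flags fell on the high probes and on the reference channel. A dim reference raises the ratio that selected the probes, so the rule favours this pattern and the shares carry no test. The reference was not well above background on at least 1 array at 49 of the 217 high probes (22.6%), against 0.439% of all autosomal probes, and at 0 of the 60 low probes. It failed on all 16 arrays at 8 high probes (3.69%), against 0.0568% of all, which is 125 probes. At these 8 the reference gives a bound. Averaged over the 16 arrays, the line was at least 2.34-fold to at least 9.08-fold higher. Each bound sets the mean line signal against the mean of the lowest reference signal that was well above background on each array, or the spot's own reference signal where higher. The line channel failed on at least 1 array at 3 low and 2 high probes, and at none on all 16. No spot of the 277 was saturated, and each probe was printed at 1 spot. Probes of 60 bases made up 80% of the low, 87.6% of the high and 91.3% of all autosomal probes; shorter probes were as short as 48 bases among the low and 47 among the high.

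The probes were unevenly spread over the autosomes. Chromosome 17, which carries the major histocompatibility complex of the mouse, held 40 of the 217 high probes (18.4%) but 4.04% of all autosomal probes, a density of 4.50 per 1000 probes against 0.987 over all autosomes. Chromosome 7 followed with 29 high probes (2.16 per 1000), then chromosome 1 with 19, chromosome 3 with 17 and chromosome 15 with 16. Chromosome 14 held 1 high probe and 9 low ones. Of the low probes, 13 lay on chromosome 2, 12 on chromosome 7 and 7 on chromosome 11, and none lay on chromosomes 10, 12, 18 and 19. Ratios were centred on the whole array, so the level of a whole chromosome in the lines also enters these counts. Over the arrays the chromosome median ran from -0.04 to 0.28 on chromosome 17 and from -0.58 to 0.03 on chromosome 7. Its share in the counts was not tested. In bins of 5 Mb, 135 of 503 bins held a member. The fullest were chromosome 7 from 100 to 105 Mb, with 14 high and 1 low, chromosome 7 from 45 to 50 Mb, with 10 high and 3 low, and chromosome 2 from 75 to 80 Mb, with 12 low. On chromosome 17 the high probes were spread, with 8 from 70 to 75 Mb, 7 from 30 to 35 Mb, 6 from 35 to 40 Mb and 6 from 45 to 50 Mb.

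Most of the 277 stood apart from each other. Members of 1 direction no more than 100 kb apart were joined, which gave 212 groups: 183 of 1 probe, 16 pairs and 13 clusters of 3 or more. The clusters held 62 members (22.4%): 21 of the 60 low probes in 3 clusters and 41 of the 217 high probes in 10. All positions are on the mouse build mm8. Gene names and probe sequences for these positions were not used here, since the annotation at hand belongs to a different build.

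Of the 3 low clusters, 2 were unbroken stretches. The largest covered 112.6 kb at chr2:77680396-77792980, where all 12 probes in the span were members, at 4.01-fold lower at the median (log2 -2.003). The mean over its members ran from -2.18 in 4T1 through -2.09 in EL4, -2.06 in P815, -2.04 in LL2, -2.03 in TRAMPC1, -2.01 in MC38, -1.999 in B16F0 ATCC, -1.96 in B16F0 ECAC, -1.96 in B16F10 ATCC, -1.95 in PAN02, -1.93 in B16F10 NCI, -1.88 in TRAMPC2, -1.88 in Hepa1-6, -1.84 in Renca and -1.80 in ID8 to -1.72 in CT26. All 16 arrays were low by nearly the same amount, and the strains overlapped: the mean was -1.96 ± 0.13 (SD, n = 12 families), with Balb/C at -1.91 ± 0.24 (n = 3) and C57BI6 at -1.96 ± 0.09 (n = 8). The single probes varied more than the lines, from -2.26 to -1.37 at the median. The reference level over the 12 probes was 1.84 above the array median with an SD of 0.02 over 16 arrays, and the line level was 0.15 below it. The nearest flanking probe on the left was at -0.30 and that on the right at -0.99, which was at or below -0.58 on all arrays. The flanking medians over 5 probes were -0.30 and 0.05.

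A second unbroken low stretch, chr11:116564047-116580851, had 5 of 5 probes as members over 16.8 kb. It was at 2 distinct depths. The 12 C57BI6 arrays ran from -2.04 in LL2 to -1.52 in TRAMPC2, while Renca was at -5.02, CT26 at -5.42, 4T1 at -5.50 and P815 at -5.71. The Balb/C and DBA/2 lines thus lay far below the C57BI6 lines with no overlap, and even the C57BI6 lines lay 3.39-fold below the reference (-1.76 ± 0.14, n = 8 families). The reference level was 2.17 above the array median, with an SD of 0.05, so the reference was the bright channel in every comparison. In Balb/C and P815 the line signal approached background: it was not well above it at 4 of 15 Balb/C spots and 2 of 5 P815 spots, against none of the C57BI6 spots. The flanking medians over 5 probes were 0.52 and 0.25. The nearest flanking probe on the left was at 0.54. That on the right was at -0.47, and at or below -0.05 on all arrays. The outermost of the 5 on the right had a median of 0.25 but read -4.73 on its lowest array.

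The third low cluster, chr7:67862239-68021868, differed in kind. It held 4 members among 23 probes, but 18 of the other 19 were below 0 on all 16 arrays, with a median of -0.89, and the flanks were at -1.05 and -0.77. The members were the deepest probes of a longer low stretch. Followed outwards for as long as a running median of 11 probes stayed at or below -0.5, it covered 720.9 kb at chr7:67519430-68240293 and 82 probes with a median of -0.92. Of these, 76 were below 0 on all 16 arrays, and 7 passed the threshold on all 16. The member means ran from -1.89 in TRAMPC1 and -1.85 in TRAMPC2 to -1.03 in B16F0 ECAC. The TRAMPC arrays were also low over the whole of chromosome 7 (medians -0.58 and -0.57). Relative to its own chromosome 7 median TRAMPC1 was at -1.31 and TRAMPC2 at -1.28, inside the range of the 16 arrays (-1.46 to -1.01), and the SD over arrays fell from 0.26 to 0.13.

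Several high clusters were compact. At chr3:91238803-91307734 all 5 probes were members (median 1.89, 3.70-fold; family mean 1.97 ± 0.19, n = 12). At chr5:62074323-62089513 all 3 probes were members at 3.13 (8.76-fold; 3.03 ± 0.30), with a reference level of 3.37 below the array median. The reference there was not well above background at 17 of 48 spots, but at none of the 3 probes on all arrays. At chr5:138081676-138111665, 4 of 5 probes were members at 1.90 (3.74-fold; 2.13 ± 0.36), and the fifth was above 0 on all 16 arrays at 0.54. The flanks of these 3 clusters had medians between -0.26 and 0.32.

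Other high clusters were interleaved with probes that were mostly near 0 or less high than the members. At chr7:102521514-102744597, 6 members with a median of 2.11 (4.32-fold) lay among 34 other probes with a median of 0.11, of which 11 had a median of 0.3 or more. At chr13:115627060-115792019, 4 members at 2.15 (4.43-fold) lay among 13 others with a median of -0.06. On chromosome 17, 3 members at 1.65 were among 10 others at 0.21 (chr17:35747171-35810829), 3 at 1.503 among 19 others at 0.34 (chr17:32657847-32792229), and 3 at 1.44 among 8 others at 0.34 (chr17:74859128-74954773). Of these others, 4 of 10, 10 of 19 and 5 of 8 had a median of 0.3 or more, and 2, 2 and 1 had a median of 0.8 or more. Many members in these spans thus lay a few kb from probes with medians nearer 0, unlike in the low stretches on chromosomes 2 and 11. Part of this contrast follows from the rule, which sets members apart from the other probes. A thirteenth cluster outside the naming rule, also on chromosome 17, had 3 members of 6 probes at 1.41.

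At chr7:47401770-47704899 high and low members lay within the same 303.1 kb. The 7 high members had a median of 2.06 (4.16-fold), while the 10 other probes had a median of -0.58 and included 2 low members, at -1.67 and -1.51. These 2 lay in a run of adjacent low probes with medians of -0.80, -1.67, -1.51, -1.27 and -1.18. The flanks were high, with medians of 0.85 and 0.62 and single probes from -0.66 to 1.12. The reference level of the 7 high members was 1.89 below the array median. The high members' mean ran from 1.48 in Renca and 1.501 in TRAMPC2 to 2.46 in B16F10 ATCC, and the strain ranges overlapped. Relative to its own chromosome 7 median (-0.57) TRAMPC2 was at 2.07, inside the range of the 16 arrays (1.81 to 2.47). In this cluster, in that at 102521514 and in the chromosome 17 cluster at 32657847, 1 member each had a reference not well above background on any array, so its ratio is a bound. Low and high members within 100 kb of each other were also found on chromosome 4 near 42006915 (-2.83 and 1.89, 42.9 kb apart) and on chromosome 7 near 103488310 (-1.41 and 3.46, 78.4 kb apart).

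**Figure D3:**
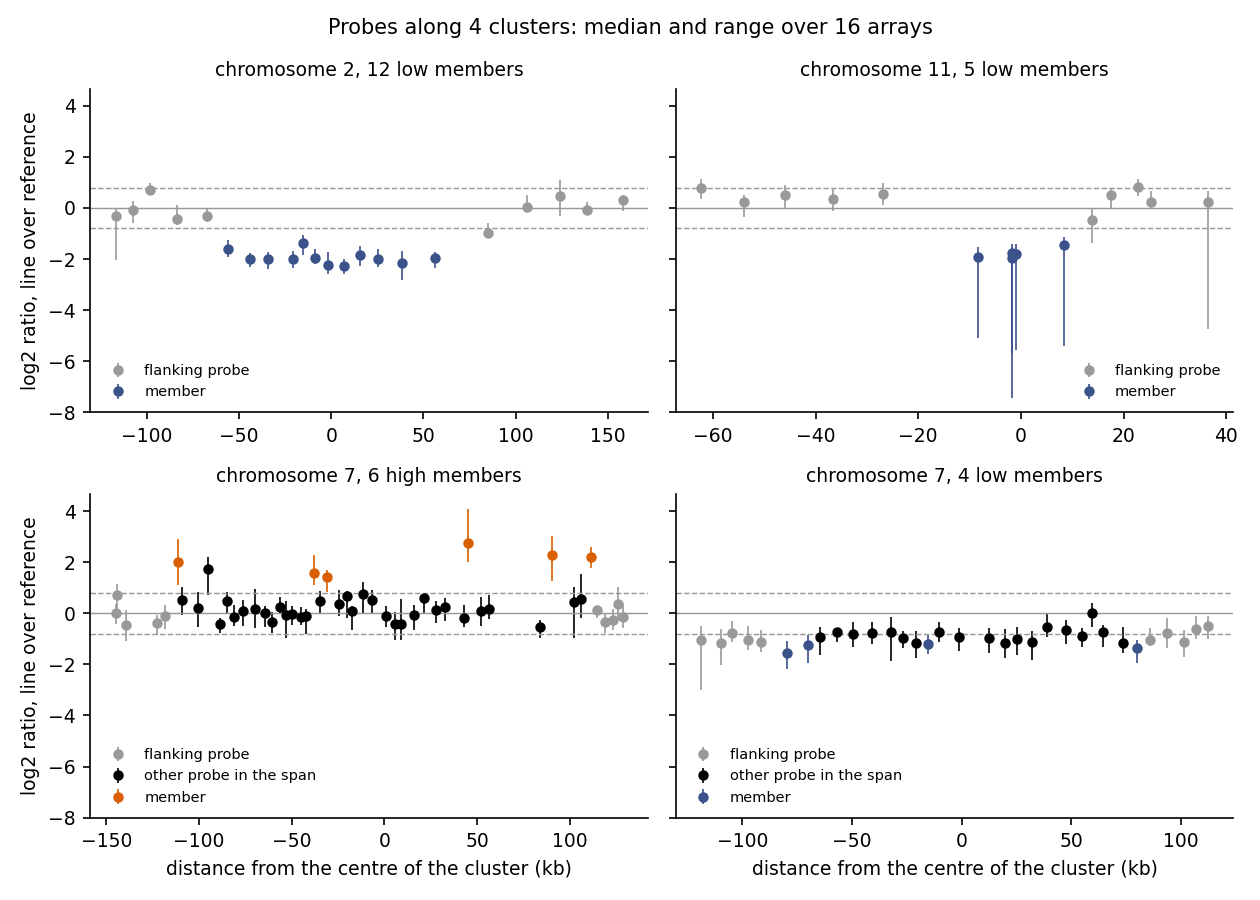
Log2 ratio of line over reference against the distance from the cluster's centre in kb, for 4 clusters; points are medians and bars the range over 16 arrays, with members coloured, other probes of the span black and flanking probes grey. The 12 chromosome 2 members form an unbroken block near -2.003, the 5 chromosome 11 members have long lower bars, the 6 high members on chromosome 7 stand among probes near 0, and the 4 low members on chromosome 7 lie within a longer low stretch.

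The 12 largest clusters differed less between lines outside chromosome 11 than on it. The rule required each member to be past 0.8 on the same side on every array, which limits the spread towards 0. At chr5:138081676-138111665 the means still ran from 1.54 in Hepa1-6 to 2.87 in P815. The SD of the member mean over 16 arrays was 0.11 at the chromosome 2 cluster and between 0.16 and 0.33 at the other 10, against 1.67 on chromosome 11. The difference of Balb/C from C57BI6 lay between -0.29 and 0.14 at these 11 clusters, and 0 of their members passed the strain test described below. Renca was the lowest array at 4 of the 9 high clusters, and P815 was the highest at 1 (2.87 on chromosome 5) and the lowest at another (1.32 on chromosome 17).

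**Figure D4:**
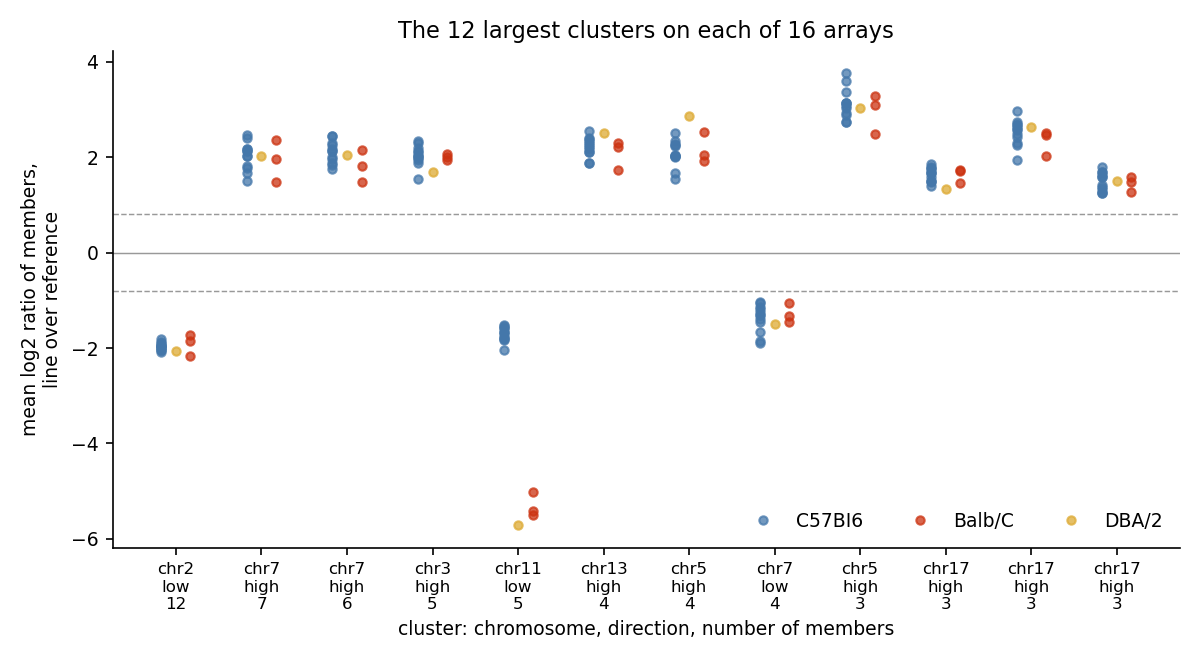
Mean log2 ratio of the members of each of the 12 largest clusters on each array, coloured by strain; labels give chromosome, direction and number of members, and dashed lines mark the threshold of 0.8 in size. At 11 clusters the strains lie close together, while on chromosome 11 the 3 Balb/C lines and P815 lie between -5.71 and -5.02 and the 12 C57BI6 arrays between -2.04 and -1.52.

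Beside the 183 probes with no member of their own direction within 100 kb, the median neighbouring probe was near the array median, at -0.12 beside the 35 low and 0.14 beside the 148 high ones. Of the 35 low probes, 3 (8.57%) had a nearest neighbour on either side with a median at or below -0.8, against 1.44% of all autosomal probes. Of the 148 high probes, 17 (11.5%) had such a neighbour at or above 0.8, against 5.16%. A neighbour past 0.3 in size in the same direction was found for 42.9% of the low probes, against 30.8%, and for 52.0% of the high ones, against 34.5%. These shares are descriptions with no test. The local level of each array (a running median of 51 probes) was then subtracted at all members, isolated or not. Of all 60 low members 37, and of all 217 high members 147, were still past 0.8 on all 16 arrays. The others were not.

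The deepest isolated low probe was A_67_P08447723 at chr15:86126975-86127034, at -3.38 (10.4-fold lower). All 16 arrays were below -2: Balb/C lines read -4.04 (4T1), -3.39 (CT26) and -2.95 (Renca), P815 read -3.60, and C57BI6 arrays ran from -3.55 (EL4) to -2.26 (LL2). The strains overlapped at this probe, and its reference level was 3.63 above the array median while the line level was 0.27 above. Next came A_67_P05213913 at chr4:42006915-42006974 (-2.83), A_53_P133409 at chr7:43310174-43310221 (-2.55), A_53_P161511 at chr6:141870373-141870431 (-2.24) and A_67_P08058232 at chr14:24253058-24253115 (-1.93). At A_67_P08058232 Renca was the weakest, at -0.94, with the other 15 arrays between -2.40 and -1.75.

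At 4 of the 5 highest isolated probes the reference gave no more than a bound. A_53_P139356 at chr5:30953031-30953090 had a median of 4.17 and ran from 3.24 in Renca to 4.97 in TRAMPC1. The reference was not well above background there on any array, so the line is at least 6.41-fold higher on average over the 16 arrays. The same held for A_53_P104495 at chr2:129300498-129300557 (4.02, at least 4.57-fold), A_53_P107107 at chr14:110551319-110551378 (3.79, at least 8.97-fold) and A_67_P02618802 at chr13:3219766-3219825 (3.58, at least 4.08-fold). Such a bound holds for the mean and not for each line. Single lines fell below it: the log2 ratio was 0.80 in CT26 at A_53_P104495 and 1.40 in 4T1 at A_67_P02618802. The highest ratio of any member, 5.15 at A_67_P08762334 in the chromosome 17 cluster at 32657847, also had a reference not well above background on any array (at least 9.08-fold). The line level at these 5 probes lay between 0.31 and 1.13 below the array median, and it was not well above background on 1 Balb/C array at A_53_P104495 and on 1 at A_67_P02618802.

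A_67_P05217013 at chr4:43451629-43451688 set 1 line apart. Its median was 3.56, and 15 arrays ran from 3.02 in Renca to 4.15 in PAN02. P815, the DBA/2 line, was at 0.90. The reference was not well above background on 4 of 16 arrays. With 1 DBA/2 line, the strain and the line cannot be told apart.

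The next comparison asked whether the lines of different strain deviated from the reference by the same amount. Balb/C (3 lines) was compared with C57BI6 (8 families) with limma over 220233 autosomal probes, at an adjusted p under 0.05 (Benjamini-Hochberg). A probe had to lie past 0.8 on the same side in both strains to be selected, so the selection limits which differences can be seen, and the all-probe share below is a background and not a matched comparison. The p-values measure the spread between lines and families, with 1 culture behind each array.

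Few members differed between the strains: 10 of 277 (3.61%) passed, against 2.34% of all autosomal probes in either direction. All 10 were lower in Balb/C. Of all 5152 probes called, 4358 were also lower in Balb/C (1.98% of the probes tested), and 794 (15.4% of the called) were higher. No member was called higher in Balb/C, against 0.361% of all probes called higher. At an unadjusted p under 0.05 there were 28 of 277 by limma (10.1%, against 7.96% of all probes), 4 of them higher in Balb/C. By direction, 6 of the 60 low and 4 of the 217 high members passed. The median difference was 0.02 over the low members, -0.07 over the high members and 0.00 over all probes. The other 267 members did not pass, and 5 of the 10 that did lay in the chromosome 11 cluster. With the scan batch as a block 9 members passed (1.08% of all probes), and within the first batch, which holds all 3 Balb/C lines, 10 passed (1.43% of all). Among the 225 members well above background in both channels on all arrays 3 passed (1.33%, against 2.06% of all such probes). After normexp background correction, which flattened the ratios of 6 arrays, limma called 0 (11 at an unadjusted p under 0.05). Beyond those 6, it brought the median low and high member of the Balb/C line CT26 to -0.18 and 0.15, against -1.45 and 1.70.

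**Figure D5:**
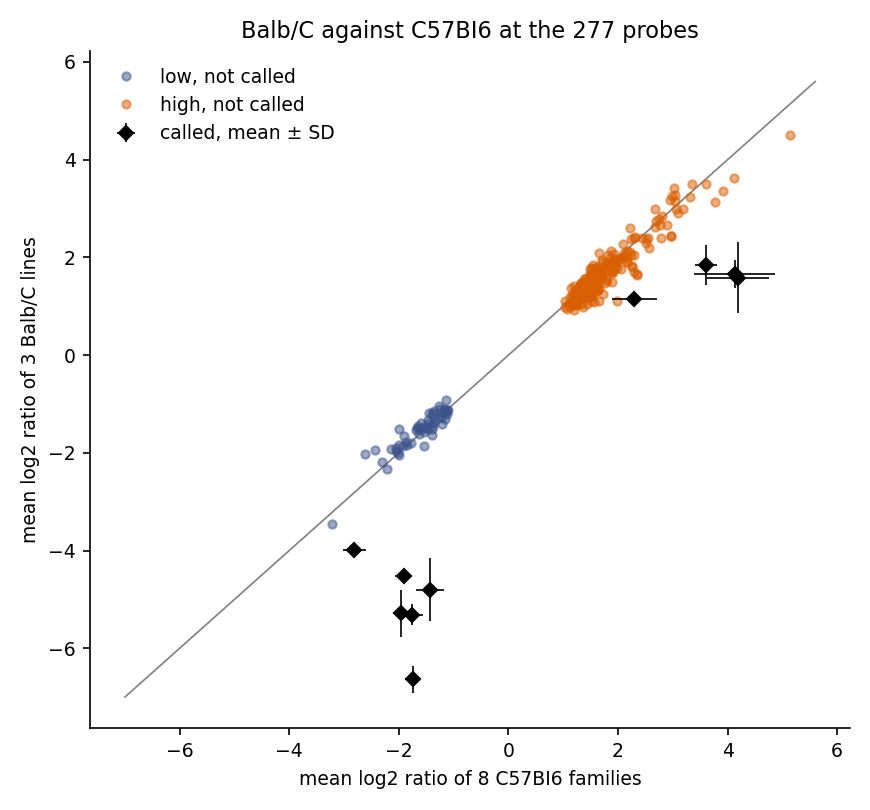
Mean log2 ratio of the 3 Balb/C lines against that of the 8 C57BI6 families at each of the 277 probes, with equality as the diagonal; black diamonds are the 10 probes called by limma, with SD bars over families. All 10 lie below the diagonal, and 5 of them form the chromosome 11 group with C57BI6 means between -1.95 and -1.43 and Balb/C means between -6.64 and -4.53.

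All 5 members of the chromosome 11 cluster were lower in Balb/C, by differences of the log2 ratio from -4.89 to -2.61. At A_53_P115288 (chr11:116570620-116570668) CT26 read -6.96, Renca -6.52 and 4T1 -6.43, P815 read -7.43, and the C57BI6 arrays ran from -1.95 to -1.42. The Balb/C mean was -6.64 ± 0.28 (n = 3) and the C57BI6 mean -1.75 ± 0.14 (n = 8 families), a difference of -4.89 (SE 0.15, limma adjusted p = 1.83e-14). The differences at the other 4 probes were -3.55 at A_53_P113817, -3.37 at A_67_P02439393, -3.33 at A_53_P142502 and -2.61 at A_67_P07506309, with limma adjusted p-values between 2.77e-12 and 8.19e-10. The ranges of the 2 strains did not overlap at any of the 5. These probes had been called by the strain test, so the lack of overlap is a description and adds no support. The line channel was not well above background on 2 of 3 Balb/C arrays at A_67_P02439393 and on 1 each at A_53_P115288 and A_53_P113817.

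The other 5 called members, named here after their values were seen, were isolated probes. A_53_P104495 on chromosome 2 read 0.80 (CT26), 1.72 (4T1) and 2.23 (Renca) in Balb/C, against 3.54 to 5.49 on the C57BI6 arrays and 4.79 in P815, a difference of -2.60. A_67_P02618802 on chromosome 13 had 1.40, 1.63 and 1.96 in Balb/C against 2.50 to 5.10 in C57BI6 and 3.57 in P815, a difference of -2.46. At both of these the reference was not well above background on any array, so the levels against the reference are bounds, while the line channel alone differed by -2.94 and -2.88. The line channel was itself not well above background on 1 of the 3 Balb/C arrays at each of these probes.

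At the remaining 3, also called by the strain test, the strain ranges did not overlap either. A_67_P06307423 (chr7:103566674-103566733) had a Balb/C mean of 1.84 ± 0.40 against 3.61 ± 0.20 and P815 at 2.11, a difference of -1.77. The reference there was not well above background on 14 of 16 arrays, and the line channel alone differed by -1.39. A_67_P05213913, the low chromosome 4 probe with the brightest reference, had -3.98 ± 0.07 in Balb/C against -2.81 ± 0.21 in C57BI6 and -2.54 in P815, a difference of -1.17. A_67_P06491228 (chr8:43846206-43846265) had 1.15 ± 0.14 against 2.29 ± 0.41 and P815 at 2.71, a difference of -1.14. The nearest arrays of the 2 strains there were close, CT26 at 1.26 and B16F0 ECAC at 1.37. P815 was on the Balb/C side at the chromosome 11 probes and inside the C57BI6 range at 4 of these 5 isolated probes. At A_67_P06307423 it lay within the Balb/C range of 1.39 to 2.15.

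Of 1171 probes high on all 12 C57BI6 arrays, 315 (26.9%) were also high on all 3 Balb/C arrays and 622 (53.1%) on none of them. The 315 were 28.0% of the 1126 probes high on all 3 Balb/C arrays, and 217 of them were high in P815 too. Of 156 probes low on all 12 C57BI6 arrays, 65 (41.7%) were low on all 3 Balb/C arrays and 78 (50%) on none of them. The 65 were 3.86% of the 1682 probes low on all 3 Balb/C arrays, and 60 of them were low in P815. Sets that must hold on 3 arrays are easier to enter than sets that must hold on 12, so the 2 shares are given side by side.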

How the data were processed

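The authors made the spot intensity values with Agilent Feature Extraction (submitters' processing notes), whose version is 10.7.3.1 and whose build is mm8 per the file headers. At a tolerance of 0.001 (log2), the deposited log10 ratio matched the processed intensity values at 99.9% or more of the spots of every array. The authors' deposited value table, in log2, differed from it by at most 5.06e-05 and had column medians from -0.044 to 0.053, which settled its scale and direction and showed no further centring. Flags were 0 or 1 in the deposited files.

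The main value was log2 of processed red over green intensity, outlier-flagged and control spots left out, repeat spots averaged and each array centred on its autosomal median, with no loess or quantile step. Strains were compared with limma 3.58.1 in R 4.3.3 (lmFit, eBayes, Benjamini-Hochberg), families as samples and P815 outside the fit. The fit was tested on simulated data. The number of arrays limits precision. The probes, the rule and the alternatives were chosen with earlier results of these data known. Named were the 12 clusters with most members, the 5 lowest and 5 highest members outside clusters, the 3 probes on each side of the threshold, and up to 5 called members per direction by the size of their strain difference. Alternatives were the threshold, centring, background correction, flags, dim probes, cluster definition, families, scan batch and left-out arrays. The normexp alternative used spot medians. Arrays of 1 family, and replicate numbers given by order, pair no samples.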

Additional observations from a re-analysis of the deposited data

Results flagged for a closer look

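The 12 largest clusters and 10 isolated probes were searched for a C57BI6 family standing apart from the other 7 (44 ends; by chance about 1 group in 20 is flagged, and 2 ends were). At the chromosome 3 cluster of 5 high probes, ID8 was lowest, at 1.53, with the nearest family at 1.91. At the low chromosome 15 probe A_67_P08447723, LL2 was highest, at -2.26, with the nearest at -3.00.

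The difference between Balb/C and C57BI6 passed limma's test at the 5 probes of the chromosome 11 cluster: -4.89 at A_53_P115288, -3.55 at A_53_P113817, -3.37 at A_67_P02439393, -3.33 at A_53_P142502 and -2.61 at A_67_P07506309. With the scan batch as a block the differences were -4.77, -3.63, -3.46, -3.24 and -2.59, and within the batch that holds all Balb/C lines -4.84, -3.60, -3.52, -3.34 and -2.73.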

How the results depend on the processing

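The counts follow the threshold: 0.6 gave 198 low and 580 high probes in 37 clusters, and 1 gave 36 and 114. With spot medians less background medians, added after seeing the data, there were 36 low and 90 high (35 and 88 of them members) in 5 clusters; the chromosome 2 cluster kept 11 of 12 members, the chromosome 11 and chromosome 13 clusters and both chromosome 5 clusters kept all, the low chromosome 7 cluster kept 2 of 4, the high ones 3 of 7 (at 47401770) and 1 of 6 (at 102521514), that on chromosome 3 1 of 5, and those on chromosome 17 0 of 3 (at 35747171) and 2 of 3 each. Normexp left 2 low and 3 high (2 and 0 of them members), 0 clusters, and 0 members and 132 of all probes called by strain (17 lower and 115 higher in Balb/C, against 4358 and 794). The SD of the log2 ratios fell below 0.2 on 6 arrays under normexp, whose range was 0.063 to 0.552 against 0.417 to 0.639. Outside these 6, the median low and high members were smallest in size on CT26 (-0.18 and 0.15), B16F10 NCI (-0.38 and 0.17) and EL4 (-0.64 and 0.26). Requiring both channels well above background on all arrays left 57 low and 168 high probes in 7 clusters, with 3 of 225 members called by strain. Clusters of at least 2 members numbered 29. With the local level subtracted there were 61 low and 221 high probes. These held 37 of the 60 low members and 147 of the 217 high ones. Leaving out 1 array gave 60 to 80 low probes, 217 to 315 high probes (315 without P815, 283 without Renca) and 13 to 17 clusters. Strain calls over all probes fell from 5152 to 2378 with scan batch as a block and to 3147 in the first batch alone; among members they were 9 and 10. Without 1 line or family, 10 to 11 members and 3761 to 5321 of all probes were called. No paired analysis was possible because replicate numbers are in accession order and the strains share no source. The cause of the moved counts was otherwise not tested. Of 87 alternatives at the 5 named strain probes, 82 kept direction and call and 5, all normexp, kept direction and lost the call.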
